A study of Mus musculus with 18 samples.

Results

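The RNA of 9 genes of glycogen synthesis and breakdown was followed in mouse neural stem cells during their differentiation to astrocytes, with and without the inflammatory cytokine TNF. The genes were chosen by name, as the rows of the deposited count table for Gys1, Gbe1, Ugp2, Pygb, Pygm, Pygl, Ppp1r3c, Ppp1r3b and Stbd1, and make up 9 of its 54838 genes. Of these, 8 passed the filter on low counts and were tested among 20067 genes. Ppp1r3b did not pass.

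Glycogen is the branched glucose polymer in which animal cells store glucose, and in the brain it is held mainly by astrocytes. Ugp2 makes UDP-glucose, the activated sugar that glycogen synthase (Gys1) adds to the growing chain, and the branching enzyme Gbe1 introduces the branch points. Glycogen phosphorylase releases glucose 1-phosphate again, and has a brain form (Pygb), a muscle form (Pygm) and a liver form (Pygl). Ppp1r3c, also called protein targeting to glycogen, and Ppp1r3b bring protein phosphatase 1 to the glycogen particle, where dephosphorylation activates the synthase and inactivates phosphorylase. Stbd1 binds glycogen and tethers it to membranes.

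The cells were taken at embryonic day 14 from the ventricular zone, each preparation from 1 wild type C57BL/6J brain, and 6 conditions with 3 replicates each gave 18 libraries. Neural stem cells were grown with EGF as floating neurospheres (NSPs), the undifferentiated state. For differentiation the medium was changed to DMEM with 10% FBS, and cells were collected after 24 h, 72 h or 1 week. TNF, at 50 ng/ml, was present in separate cultures collected after 24 h or 72 h (24 h TNF and 72 h TNF), and no TNF group exists for 1 week. NSPs and differentiated cells therefore differ in medium, serum, growth factor and attachment together, which cannot be told apart from differentiation. All cells were wild type and cultured, and the libraries hold whole cultures, not sorted astrocytes. The study's methods give independent biological experiments as its general rule, without naming these libraries, and the labels do not say whether replicates of a condition came from separate brains or cultures, so p-values measure the spread between these libraries, which may be in part technical.

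Library totals ranged from 12509693 to 22549627 counts. The NSPs, 24 h TNF and 72 h TNF libraries of replicate 1 stood apart: their root mean square log2 difference from the other 2 libraries of their condition was 0.584 to 0.646, against 0.325 to 0.532 for the rest. Among the 8 astrocyte markers, Gfap, the astrocyte filament protein, was at 1871 CPM (counts scaled to a common library size) in 24 h TNF replicate 1 against 463 and 596 in the others, and at 1022 in 72 h TNF replicate 1 against 217 and 229. In NSPs replicate 1 it was at 11.6, against 37.3 and 32.4. The sum of the 8 markers was 6199 CPM in 24 h TNF replicate 1 against 4875 and 4941, 4888 in 72 h TNF replicate 1 against 3847 and 3485, and 5129 in NSPs replicate 1, within 5128 to 5364 for the other NSPs. For the 8 tested glycogen genes, calls that changed without these 3 libraries are given beside the results. For the further lists of glycogen and signalling genes the changed counts are given. The summed level of 3 muscle markers was at most 0.783 CPM in any library, that of 4 microglial markers at most 1.56, of 3 endothelial markers at most 0.885 and of 4 fibroblast markers at most 2.46, with Lum at 0 throughout. Nfkbia, a direct NF-κB target, was higher with TNF at both times (log2 fold change 2.44 at 24 h and 2.80 at 72 h, adjusted p = 6.87e-08 and 1.2e-08). It was 1 of 3 genes chosen to check the response to TNF, with Icam1 and Lcn2, of which 2 were tested. Both of these were higher with TNF at 24 h, and only Nfkbia at 72 h. The effect of TNF on the other tested gene was smaller at 72 h than at 24 h.

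The genes lie on 8 chromosomes of GRCm38 (mm10) and are all protein-coding. Gys1 spans chr7:45434844-45456619 on the plus strand, Gbe1 chr16:70313949-70569716 (plus) and Ugp2 chr11:21321138-21371201 (minus). The phosphorylase genes are Pygb at chr2:150786735-150831758 (plus), Pygm at chr19:6384399-6398459 (plus) and Pygl at chr12:70190811-70231488 (minus). Ppp1r3c lies at chr19:36731731-36736653 (minus), Ppp1r3b at chr8:35375739-35388139 (plus) and Stbd1 at chr5:92603041-92606579 (plus). Only Gys1 and Ugp2 share exonic bases with another gene, in both cases on the opposite strand: 310 bp (6.5% of its exons) with Ruvbl2 for Gys1 and 78 bp (2.5%) with Gm12043 for Ugp2. Of the 75-base words in its transcripts, 4.43% were also found in another gene for Gys1, 0.131% for Ugp2, 0.161% for Pygl and none for the other 6. The strand setting of the counting is not given in the sources used here, so reads of these overlaps may be shared.

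Pygb and Ppp1r3c, the brain phosphorylase and the phosphatase subunit, were the members that passed the test against TNF below, and their RefSeq promoters (GRCm38.p6, 250 bases before to 50 after the start, 5′ to 3′ on the strand of the gene) are shown for that reason. The window is chr2:150786546-150786845 (plus) for Pygb and chr19:36736555-36736854 (minus) for Ppp1r3c. Capitals mark matches to ACGTG, the core of a hypoxia response element, on either strand.
Pygb: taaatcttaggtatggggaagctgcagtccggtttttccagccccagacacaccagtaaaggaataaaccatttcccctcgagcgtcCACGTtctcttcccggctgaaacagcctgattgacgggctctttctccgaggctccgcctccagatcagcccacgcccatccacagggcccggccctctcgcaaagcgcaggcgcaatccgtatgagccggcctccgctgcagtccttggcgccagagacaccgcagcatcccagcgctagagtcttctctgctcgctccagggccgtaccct
Ppp1r3c: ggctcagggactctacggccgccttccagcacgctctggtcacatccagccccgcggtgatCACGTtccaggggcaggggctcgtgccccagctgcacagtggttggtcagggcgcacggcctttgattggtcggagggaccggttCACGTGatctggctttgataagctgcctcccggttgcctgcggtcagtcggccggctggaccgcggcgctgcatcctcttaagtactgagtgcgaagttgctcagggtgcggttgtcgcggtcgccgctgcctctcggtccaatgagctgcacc
The Pygb window held the core once, at -163 from the start. In Ppp1r3c it began at -189, -104 and -103, where the latter pair are the same 6 letters, CACGTG, read on both strands, which is also an E-box. Of all 32851 promoter windows 19.6% held ACGTG and 7.15% held CACGTG. Promoter windows were found for 8 of the 9 genes, and 5 of these 8 held ACGTG (Pygb, Ppp1r3c, Ugp2, Pygl and Pygm), while only Ppp1r3c held CACGTG. The cAMP response element TGACGTCA (1.79% of all windows) and the κB-type motif searched (1.63%), each read on both strands, were in none of the 8. These matches are descriptions of the sequence and say nothing of binding.

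Per exon length, RNA of the glycogen genes spanned several orders of magnitude in these cells. Averaged over the 18 libraries, Pygb was at 153 CPM per kb of exon and Ugp2 at 120.0, followed by Ppp1r3c at 41.6. Gys1 was at 10.6 and Gbe1 at 9.61. Pygm (1.84), Stbd1 (0.381) and Pygl (0.115) came last among the tested genes, and Ppp1r3b was at 0.00459. The order was the same with the longest transcript in place of all exons, where Gys1 and Gbe1 were both at 13.8.

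**Figure D1:**
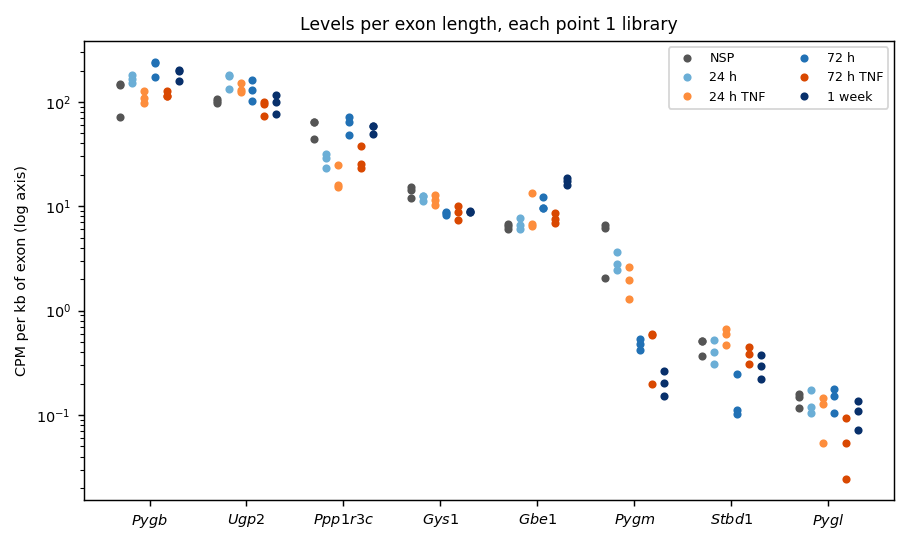
Level of the 8 tested genes in CPM per kb of exon (log axis), each point 1 library, coloured by condition. Pygb, Ugp2 and Ppp1r3c sit above 10 in every library, Pygl at most at 0.176, and Pygm falls from 6.69 at most in NSPs to 0.151 at least at 1 week. Ppp1r3b is left out because most of its values are 0.

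Within families a single gene carried most of the RNA. Of the 3 phosphorylases, Pygb made up 96.1% of the summed level per length in NSPs and 99.8% at 1 week, and Pygm 3.73% and 0.112%. Pygl stayed at or below 0.199% in every library. Among 7 genes for glycogen-targeting subunits of protein phosphatase 1, Ppp1r3c accounted for between 87.9% (mean at 24 h TNF) and 96.4% (72 h). Ppp1r3b, the subunit best known from liver, had 8 counts in all 18 libraries together and 0 in 13 of them, where a count of 0 still allows a level of 0.132 to 0.244 CPM depending on the library. That limit covers counting error only.

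**Figure D2:**
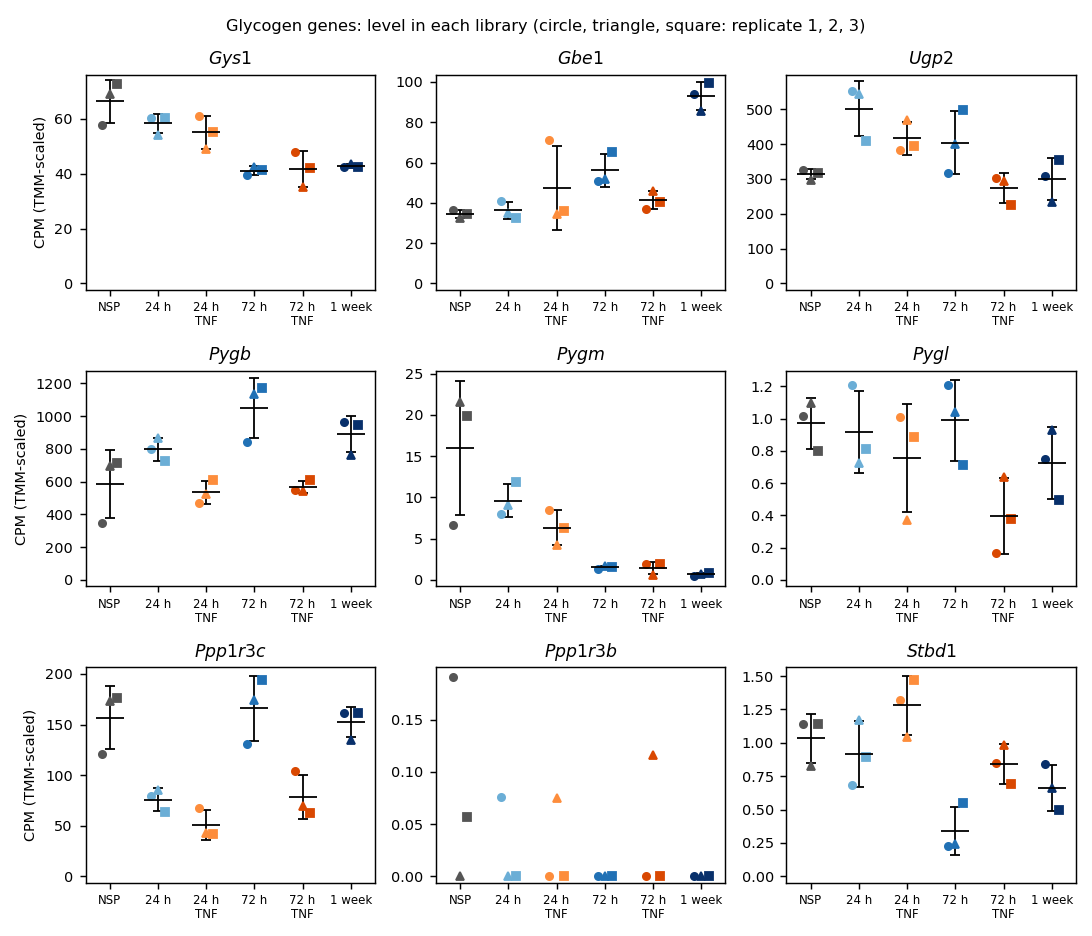
Level of the 9 genes in each of the 18 libraries (TMM-scaled CPM, linear axes that differ between panels). Points are libraries, with circle, triangle and square for replicates 1, 2 and 3. Horizontal lines and bars are the mean and SD of 3 libraries, not drawn for Ppp1r3b. Gbe1 is highest at 1 week (85.7 to 99.6), Pygm in NSPs (6.66 to 21.5), and Ppp1r3c is low at 24 h with or without TNF and at 72 h TNF.

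The question of how RNA of the glycogen pathway changed along differentiation was addressed by comparing 24 h, 72 h and 1 week with NSPs, and successive times with each other. The comparisons with NSPs share the NSP libraries. A gene is said to be higher or lower only when edgeR's quasi-likelihood test gave a Benjamini-Hochberg adjusted p under 0.05. After 24 h, 2 of the 8 tested genes had changed, against 52.7% of all genes tested (27.2% higher and 25.5% lower): Ugp2 was higher and Ppp1r3c lower. At 72 h 5 of 8 had changed (55.3% of all genes, 28.1% higher and 27.2% lower): Gbe1 and Pygb were higher, and Gys1, Pygm and Stbd1 lower. At 1 week 4 of 8 had changed (58.6%, with 29.6% higher and 29.1% lower), with Gbe1 and Pygb higher and Gys1 and Pygm lower. The median log2 fold change of the 8 genes was -0.12, 0.05 and -0.23 at the 3 times, and that of all tested genes 0.06, 0.05 and 0.06. The summed level of 3 proliferation markers fell over the same times, from 1215 to 1921 CPM in NSPs to 84.1 to 85.8 at 24 h and 6.26 to 9.80 at 72 h. That of 4 neuronal markers was 16.4 to 28.7 CPM in NSPs, 34.8 to 44.1 at 24 h and 9.82 to 10.7 at 72 h, and that of 4 oligodendrocyte markers 8.25 to 19.9, 15.2 to 20.6 and 4.72 to 5.37. The 8 astrocyte markers summed to 5128 to 5364 CPM in NSPs, 5324 to 5789 at 24 h, 5696 to 8145 at 72 h and 2683 to 3247 at 1 week, where 6 of the 8 were lower than at 72 h. The 3 neural stem cell markers summed to 1436 to 2046 CPM in NSPs, 888 to 1010.3 at 24 h, 965 to 1365 at 72 h and 996 to 1473 at 1 week, with 2 of the 3 lower at 24 h than in NSPs and 2 of the 3 higher at 72 h than at 24 h. At 1 week the proliferation, neuronal and oligodendrocyte markers summed to 6.63 to 8.17, 6.58 to 7.55 and 4.99 to 5.77 CPM. Their part in the results was not tested.

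Of the synthesis genes, Ugp2, which makes UDP-glucose, was highest at 24 h. Its level was 327, 298 and 316 CPM in NSPs and 552, 544 and 409.8 at 24 h, so that all 24 h libraries were above all NSPs. That is a 1.60-fold rise (log2 0.68, SE 0.18, adjusted p = 0.00398). At 72 h the libraries spread from 316 to 497 CPM and overlapped NSPs (log2 0.37, SE 0.18, adjusted p = 0.0898), and at 1 week they lay at 309, 235 and 354 (log2 -0.07, 95% interval -0.44 to 0.31). The 72 h difference passed the test without 72 h replicate 1 (log2 0.52, adjusted p = 0.0251) and in 3 other settings. In the order of the 6 condition means, from 502 CPM at 24 h to 274 at 72 h TNF, each neighbouring pair overlapped.

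Gys1, the glycogen synthase, had fallen at 72 h and later. NSPs held 57.7, 68.9 and 72.6 CPM and the 24 h cultures 60.5, 54.3 and 60.2, which overlapped (adjusted p = 0.216). At 72 h the values were 39.4, 42.5 and 41.4, and at 1 week 42.4, 43.5 and 42.3, all below every NSP and 24 h library. The fall from NSPs to 72 h was 1.61-fold (log2 -0.69, SE 0.13, adjusted p = 0.000142), and that to 1 week 1.55-fold (adjusted p = 0.000285). Between 72 h and 1 week the 95% interval of the log2 difference was -0.21 to 0.32. Without the 3 replicate 1 libraries that stood apart, Gys1 was already lower at 24 h (log2 -0.30, adjusted p = 0.0199).

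Gbe1, the branching enzyme, moved the other way and was highest at 1 week. It was at 36.6, 32.3 and 34.7 CPM in NSPs and 41.0, 35.1 and 32.6 at 24 h, without separation. Values of 51.1, 52.0 and 65.5 followed at 72 h and 93.9, 85.7 and 99.6 at 1 week, with no overlap between these times. The rise from NSPs was 1.63-fold at 72 h (log2 0.70, SE 0.21, adjusted p = 0.00726, or 0.0523 in a replicate block with 72 h replicate 3 unpaired) and 2.69-fold at 1 week (log2 1.43, SE 0.21, adjusted p = 1.08e-05). From 72 h to 1 week Gbe1 was the only one of the 8 genes that changed, 1.65-fold higher (adjusted p = 0.0375), where 6.63% of all genes were called (2.68% higher and 3.96% lower). This last call was lost when 72 h replicate 1 or 2 or any 1 week library was left out (adjusted p from 0.0663 to 0.160), although the log2 fold change stayed between 0.66 and 0.85 over all 18 libraries left out in turn.

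Among the phosphorylases, the brain form rose and the muscle form nearly vanished. Pygb was at 346, 697 and 711 CPM in NSPs, 798, 864 and 726 at 24 h, 842, 1137 and 1171 at 72 h, and 965, 763 and 946 at 1 week. Every differentiated library without TNF was above every NSP library, and NSPs replicate 1 was the lowest of all. Against NSPs the log2 fold change was 0.45 at 24 h (SE 0.21, adjusted p = 0.0786), 0.84 at 72 h (1.80-fold, SE 0.21, adjusted p = 0.00206) and 0.61 at 1 week (1.52-fold, SE 0.21, adjusted p = 0.0174). Leaving out NSPs replicate 1 lowered the values for Pygb to 0.17, 0.57 and 0.34, of which only that at 72 h passed the test (adjusted p = 0.376, 0.00625 and 0.0800). At 24 h Pygb passed the test without NSPs replicate 2 (adjusted p = 0.0466) or 3 (0.0382). The 1 week call was also lost without 1 week replicate 1 (adjusted p = 0.0589) or 3 (0.0519), or with only the groups compared (0.0588).

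Pygm, the muscle form, was at 6.66, 21.5 and 19.9 CPM in NSPs, 7.94, 9.06 and 11.8 at 24 h, 1.36, 1.72 and 1.54 at 72 h, and 0.486, 0.658 and 0.845 at 1 week. All 72 h and 1 week libraries were below all NSP and 24 h libraries, and the raw counts behind them were 11 to 28. The fall from NSPs was 10.3-fold at 72 h (log2 -3.37, SE 0.42, adjusted p = 1.94e-06) and 24.6-fold at 1 week (log2 -4.62, SE 0.46, adjusted p = 1.06e-07). At 24 h Pygm did not pass the test (log2 -0.74, SE 0.36, adjusted p = 0.0920). It passed without NSPs replicate 1, the lowest of the NSPs (log2 -1.11, adjusted p = 0.00491), without the 3 replicate 1 libraries (-1.13, 0.000878) and with no filter on low counts (-0.80, 0.00844). From 72 h to 1 week the groups did not overlap and Pygm was 2.38-fold lower without passing (log2 -1.25, SE 0.51, adjusted p = 0.174). This difference was called without the 3 replicate 1 libraries (adjusted p = 0.0278), with only the groups compared (0.0331) and with no filter (0.0195). The decline between 24 h and 72 h was 6.18-fold (adjusted p = 0.000151). The muscle markers Ckm, Myog and Actn2 were each at 0 in at least 1 library.

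Pygl, the liver form, had 3 to 20 counts in any library and a mean level of 0.990 CPM at most in any condition. Its log2 fold change from NSPs was -0.09 at 24 h, 0.01 at 72 h and -0.39 at 1 week, with 95% intervals of -0.94 to 0.75, -0.82 to 0.84 and -1.23 to 0.44. Changes within these intervals were not detectable at this depth.

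Ppp1r3c was low at 24 h and higher again at 72 h. NSPs held 121, 174 and 176 CPM, the 24 h cultures 78.9, 85.4 and 63.1, the 72 h cultures 130.5, 174 and 194, and the 1 week cultures 161, 135 and 161. The 24 h libraries lay below all others without TNF, and the other 3 conditions overlapped. The fall at 24 h was 2.07-fold (log2 -1.05, SE 0.22, adjusted p = 0.00062) and the rise from 24 h to 72 h 2.19-fold (log2 1.13, SE 0.22, adjusted p = 0.00083). At 72 h and 1 week the difference from NSPs had a 95% interval of -0.37 to 0.53 and of -0.49 to 0.41 on the log2 scale.

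Stbd1, the glycogen tether, was scarce, with 3 to 25 counts per library. It was at 1.14, 0.824 and 1.14 CPM in NSPs, 0.680, 1.17 and 0.896 at 24 h, 0.227, 0.245 and 0.550 at 72 h, and 0.839, 0.658 and 0.493 at 1 week. The 72 h libraries were below all NSP and 24 h libraries (2.89-fold below NSPs, log2 -1.53, SE 0.38, adjusted p = 0.00214), and the 1 week libraries overlapped both groups and the 72 h libraries. With 3, 4 and 10 counts at 72 h, the size of this difference is poorly fixed.

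**Figure D3:**
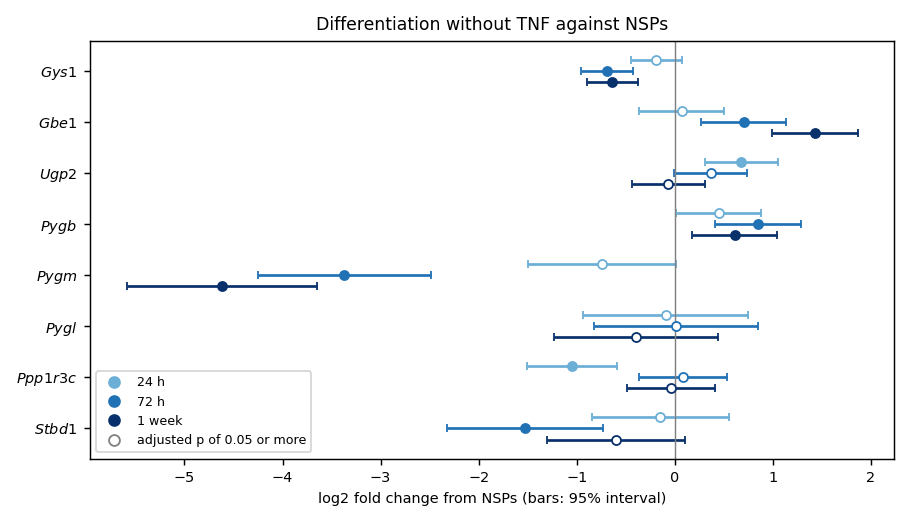
Log2 fold change from NSPs of the 8 tested genes at 24 h, 72 h and 1 week without TNF, with 95% intervals from the fit. Filled points have an adjusted p under 0.05. Gbe1 climbs to 1.43 and Pygm falls to -4.62 at 1 week, while Ppp1r3c is lower only at 24 h (-1.05).

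Between 24 h and 72 h without TNF, 5 of the 8 genes changed, against 24.8% of all genes tested (12.2% higher and 12.6% lower). Gys1 (log2 -0.50, adjusted p = 0.00654), Pygm and Stbd1 (log2 -1.38, adjusted p = 0.0138) fell, and Gbe1 (log2 0.63, adjusted p = 0.0306) and Ppp1r3c rose. The Gbe1 call was lost without 24 h replicate 2 or 3 or 72 h replicate 2 or 3 (adjusted p from 0.0513 to 0.138). Pygb, not called here (log2 0.40, adjusted p = 0.178), passed without NSPs replicate 1 (adjusted p = 0.0422) and without the 3 libraries that stood apart (0.0151). The Stbd1 call was lost without 24 h replicate 2 (adjusted p = 0.0848) or 72 h replicate 2 (adjusted p = 0.0752), or with no filter on low counts (0.0577).

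The other genes of glycogen metabolism were taken from a list of 23, of which 20 were tested. From NSPs to 72 h, 3 of the 20 rose and 7 fell (28.1% and 27.2% of all genes). Without the 3 libraries that stood apart, 12 were called. The largest change was in Phkg1, a catalytic subunit of phosphorylase kinase, the enzyme that activates phosphorylase. It rose from 12.9 ± 4.65 CPM in NSPs to 33.7 ± 1.19 at 24 h and 112 ± 11.9 at 72 h (mean ± SD, n = 3; log2 3.12 against NSPs, SE 0.24, adjusted p = 4.62e-09) and stood at 59.1 ± 2.67 at 1 week. Of the summed level per length of Phkg1 and Phkg2, Phkg1 made up 30.9% in NSPs and 76.6% at 72 h. Pgm2, a phosphoglucomutase named here as in GENCODE M21 (the mouse symbols Pgm1 and Pgm2 differ between annotation releases), was higher (log2 1.08, SE 0.15, adjusted p = 6.83e-06). Lower were Ppp1r3d, another targeting subunit (log2 -2.17, SE 0.28, adjusted p = 3.25e-06), and Ppp1cc, a catalytic subunit of protein phosphatase 1 (log2 -0.94, SE 0.15, adjusted p = 3.34e-05).

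A further list of 14 receptors and kinases of the signals known to act on glycogen in astrocytes had 13 tested genes, of which 5 had risen and 2 had fallen from NSPs to 72 h, where 55.3% of all genes were called. Without the 3 libraries that stood apart, 8 were called. The insulin receptor substrates Irs2 (log2 1.53, adjusted p = 5.69e-07) and Irs1 (log2 1.11, adjusted p = 2.43e-05) rose. Adcyap1r1, the PACAP receptor, fell from 717 to 405 CPM (log2 -0.82, SE 0.19, adjusted p = 0.00124).

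The effect of TNF was addressed by comparing treated and untreated cultures of the same time. After 72 h, 2 of the 8 tested glycogen genes had changed, against 9.56% of all genes tested (4.35% higher and 5.21% lower), and both were lower with TNF: Pygb, the dominant phosphorylase, and Ppp1r3c, the dominant targeting subunit. The study had already reported both genes from these libraries as modulated by TNF, so these calls are not independent of the choice of genes. The median log2 fold change of the 8 genes was -0.50, and that of all tested genes -0.01. After 24 h none of the 8 passed the test, where 3.5% of all genes did (2.18% higher and 1.32% lower). Both comparisons share their untreated libraries with those along time above. At 24 h the oligodendrocyte markers summed to 7.62 to 8.20 CPM with TNF against 15.2 to 20.6 without, and the 4 fibroblast markers to 1.95 to 2.46 against 0.378 to 1.30, the astrocyte markers to 4875 to 6199 against 5324 to 5789, the neuronal markers to 16.8 to 58.7 against 34.8 to 44.1 and the proliferation markers to 32.3 to 85.3 against 84.1 to 85.8. The neural stem cell markers summed to 769 to 1069 CPM against 888 to 1010.3. Their part in the differences at 24 h was not tested.

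Pygb was at 842, 1137 and 1171 CPM at 72 h and 548, 544 and 608 at 72 h TNF. All 3 treated libraries were below all untreated ones, and they lay close to each other. TNF-treated cultures held 1.85-fold less (log2 -0.89, SE 0.21, 95% interval -1.33 to -0.45, adjusted p = 0.00991). The call was lost by a small margin without 72 h replicate 2 (log2 -0.83, adjusted p = 0.0511) or 72 h replicate 3 (log2 -0.80, adjusted p = 0.0536) and held in the other 26 alternatives. Without the 3 replicate 1 libraries that stood apart it was log2 -0.85 (adjusted p = 0.000396).

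Ppp1r3c was at 130.5, 174 and 194 CPM at 72 h and 104, 69.2 and 62.9 at 72 h TNF. Again the groups did not overlap, and the highest treated library was replicate 1. The difference was 2.11-fold (log2 -1.08, SE 0.22, 95% interval -1.54 to -0.62, adjusted p = 0.00308), and this call held in all 28 alternatives. Without the 3 libraries that stood apart it was larger (log2 -1.32). Gfap, the filament gene, was lower at 72 h TNF too (log2 -2.31, SE 0.56, adjusted p = 0.0128), and the summed level of the 8 astrocyte markers was 3485 to 4888 CPM with TNF and 5696 to 8145 without. With TNF at 72 h the neuronal markers summed to 6.93 to 16.7 CPM, the oligodendrocyte markers to 3.55 to 4.76 and the proliferation markers to 6.76 to 20.8. Near the floor, the microglial markers summed to 1.33 to 1.56 CPM with TNF against 0.605 to 1.17 without. The endothelial markers summed to 0.522 to 0.813 against 0.165 to 0.454, and the fibroblast markers to 0.732 to 1.25 against 0.110 to 0.681. The muscle markers overlapped. The neural stem cell markers summed to 561 to 904 CPM with TNF and 965 to 1365 without, which did not overlap. The part of these cell contents in the 2 glycogen gene differences was not tested. In bulk RNA, fewer cells of a type and less RNA per cell cannot be told apart.

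A further 4 genes had 72 h groups that did not overlap without passing the test, which makes 6 of 8 without overlap against 26.2% of all tested genes. Ugp2 was at 316, 400.1 and 497 CPM without and 304, 294 and 224 with TNF (log2 -0.56, SE 0.18, adjusted p = 0.0548), and DESeq2 called it lower (adjusted p = 0.0335), as did the fit without 72 h replicate 1 (log2 -0.71, adjusted p = 0.0160), 24 h replicate 3, 24 h TNF replicate 1 or 1 week replicate 2. Without the 3 libraries that stood apart Ugp2 was called too (log2 -0.63, adjusted p = 0.0360). Gbe1 was at 51.1, 52.0 and 65.5 CPM without and 37.1, 46.1 and 40.6 with TNF (log2 -0.45, SE 0.21, adjusted p = 0.183). It was called only without 24 h TNF replicate 1 (adjusted p = 0.0275). The scarce Pygl (log2 -1.30, SE 0.45, adjusted p = 0.0745) and Stbd1 (log2 1.24, SE 0.39, adjusted p = 0.0510) pointed in opposite directions, on 3 to 17 counts per library. Pygl passed the test without 72 h TNF replicate 2 (adjusted p = 0.0375), and Stbd1 without NSPs replicate 1 (adjusted p = 0.0484), 24 h TNF replicate 1 (0.0497) or 72 h replicate 3 (0.0243).

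Gys1 and Pygm overlapped between the 72 h groups. Gys1 was at 39.4, 42.5 and 41.4 CPM without and 48.0, 35.0 and 42.0 with TNF, and the 95% interval of the log2 difference, -0.25 to 0.28, is the narrowest of the 8 genes. For Pygm, at 1.36 to 1.72 CPM without and 0.638 to 1.92 with TNF, the interval was wide (-1.04 to 0.90).

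**Figure D4:**
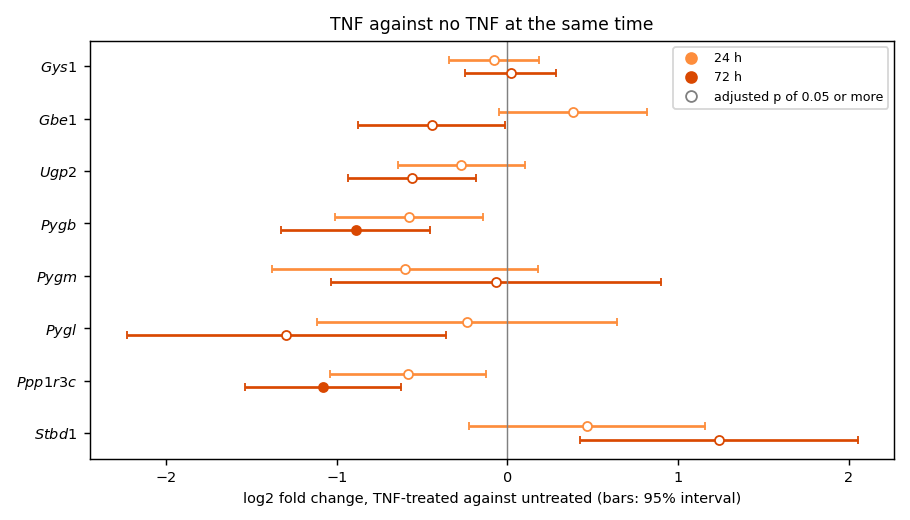
Log2 fold change of TNF-treated against untreated cultures at 24 h and 72 h for the 8 tested genes, with 95% intervals from the fit. Filled points have an adjusted p under 0.05. Only Pygb (-0.89) and Ppp1r3c (-1.08) at 72 h are filled, and Gys1 lies near 0 at both times.

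At 24 h the same 2 genes had the smallest unadjusted p of the 8, and they were the 2 under 0.05. Pygb was at 798, 864 and 726 CPM without TNF and 467, 523 and 611 with it, with no overlap (log2 -0.58, SE 0.21, adjusted p = 0.168). Ppp1r3c was at 78.9, 85.4 and 63.1 CPM without TNF and 67.3, 43.1 and 41.6 with it, where treated replicate 1 lay within the untreated range (log2 -0.58, SE 0.22, adjusted p = 0.195). DESeq2 called none of the 8 either. Without the 3 libraries that stood apart, 2 genes passed: Ppp1r3c (log2 -0.86, adjusted p = 0.00151) and Pygb (log2 -0.51, adjusted p = 0.0361). That setting, chosen after seeing the data, also raised the count over all genes from 703 to 1277. Leaving out 24 h TNF replicate 1 alone gave Ppp1r3c (adjusted p = 0.0462), and leaving out NSPs replicate 1 alone gave Pygb (adjusted p = 0.0232).

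The remaining genes overlapped between the 24 h groups. Gbe1 was at 71.4 CPM in 24 h TNF replicate 1 and 34.6 and 35.9 in the others, against 41.0, 35.1 and 32.6 without TNF. Its log2 difference was 0.38 (SE 0.21, adjusted p = 0.446) with this library and -0.06 (adjusted p = 0.928) without it. Gys1 was at 61.0, 49.1 and 55.4 CPM with TNF (log2 -0.08, SE 0.13) and Ugp2 at 384, 469.8 and 395 (log2 -0.27, SE 0.18). Pygm (8.44, 4.18 and 6.31 CPM), Pygl (1.01, 0.373 and 0.885) and Stbd1 (1.32, 1.04 and 1.47) had adjusted p of 0.544, 0.878 and 0.614.

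The effect of TNF was not shown to differ between 24 h and 72 h for any of the 8 genes, where 0.458% of all genes had an interaction (0.135% higher and 0.324% lower). Gbe1 was the 1 gene with an unadjusted p under 0.05 (log2 -0.83, SE 0.29, adjusted p = 0.293), and DESeq2 gave none either. For Pygb the interaction was -0.31 (95% interval -0.93 to 0.30) and for Ppp1r3c -0.50 (-1.14 to 0.15), so effects of unlike size at the 2 times remain possible.

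In the treated series from 24 h to 72 h, 3 of 8 genes fell, against 13.3% of all genes tested (5.38% higher and 7.93% lower). Ugp2 fell 1.52-fold from 384, 469.8 and 395 to 304, 294 and 224 CPM (log2 -0.60, SE 0.18, adjusted p = 0.0308), and Pygm 4.28-fold (log2 -2.10, SE 0.42, adjusted p = 0.00289). Gys1 fell 1.32-fold (log2 -0.41, SE 0.13, adjusted p = 0.0398). The labels state no pairing of these libraries. With a replicate block, which pairs libraries of the same number, Gys1 no longer passed (adjusted p = 0.0502) while Ugp2 (0.0466) and Pygm (0.00379) did. The Gys1 call was lost in 18 of 28 alternatives, among them those without any 1 of the 24 h or 24 h TNF libraries, without replicate 2 or 3 of 72 h TNF, replicate 2 of 72 h, or replicate 1 or 3 of 1 week (adjusted p from 0.0536 to 0.180). That of Ugp2 was lost without replicate 2 or 3 of 24 h TNF or 72 h TNF (adjusted p from 0.0551 to 0.167), or with only the groups compared (0.0683). Ppp1r3c went from 67.3, 43.1 and 41.6 to 104, 69.2 and 62.9 CPM with it (log2 0.63, SE 0.22, adjusted p = 0.0635). It passed without 24 h TNF replicate 1 (log2 0.93, adjusted p = 0.00611), without NSPs replicate 1 (adjusted p = 0.0448), without the 3 libraries that stood apart (log2 0.68, adjusted p = 0.00524) and with DESeq2 (0.0462).

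Set against NSPs, TNF-treated cultures had lower Ppp1r3c at both times. At 24 h TNF 2 of 8 genes were called (54.5% of all genes, 28.2% higher and 26.3% lower), Ppp1r3c 3.10-fold lower (log2 -1.63, SE 0.22, adjusted p = 8.11e-06) and Pygm 2.53-fold lower (log2 -1.34, SE 0.37, adjusted p = 0.00509). At 72 h TNF 4 of 8 were called (61.9% of all genes, 31.7% higher and 30.1% lower), all lower: Gys1 (log2 -0.67, adjusted p = 0.000163), Pygm (log2 -3.44, adjusted p = 1.46e-06), Ppp1r3c (95% interval -1.45 to -0.54 on the log2 scale, adjusted p = 0.000667) and Pygl (log2 -1.29, SE 0.44, adjusted p = 0.0171). Pygl was no longer called without NSPs replicate 2 (adjusted p = 0.0522) or 72 h TNF replicate 1 (0.106), nor without the 3 libraries that stood apart (log2 -0.88, adjusted p = 0.125). Pygb, higher than in NSPs at 72 h without TNF, had a log2 difference of -0.04 from NSPs at 72 h TNF (95% interval -0.48 to 0.39), and Gbe1 one of 0.26 (-0.17 to 0.69). Without the 3 libraries Gbe1 was called higher (log2 0.38, adjusted p = 0.0257). Without NSPs replicate 1, Gys1 (log2 -0.36, adjusted p = 0.0227) and Pygb (log2 -0.40, adjusted p = 0.0381) were called lower at 24 h TNF, Gys1 also without 24 h TNF replicate 1 (adjusted p = 0.0359) and without all 3 (log2 -0.47, adjusted p = 0.00233). Gbe1, at log2 0.45 there (adjusted p = 0.0697), was called higher without 24 h TNF replicate 2 (0.0156) or 3 (0.0224), and had a log2 difference of 0.01 without replicate 1. Ugp2, at log2 0.41 (adjusted p = 0.0605), was called higher without 72 h replicate 1 (0.0432) or 3 (0.0467), 72 h TNF replicate 1 (0.0490) or 1 week replicate 2 (0.0462).

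Among the 20 other tested glycogen genes, 3 were lower with TNF at 72 h (9.56% of all genes called) and none was called at 24 h (3.5%), where 2 had an unadjusted p under 0.05 and DESeq2 called none. Phkg1, the phosphorylase kinase subunit, was at 104, 126 and 108 CPM at 72 h and 48.7, 57.2 and 61.3 at 72 h TNF, without overlap (log2 -1.01, SE 0.22, adjusted p = 0.00629). Epm2a, the laforin phosphatase that acts on glycogen, was at 11.7, 13.8 and 17.1 CPM without and 7.94, 8.82 and 9.07 with TNF (log2 -0.72, SE 0.20, adjusted p = 0.0276). Pgm2 was at 29.0, 34.6 and 41.3 CPM without and 26.9, 23.6 and 22.2 with TNF (log2 -0.53, SE 0.15, adjusted p = 0.0286). The median log2 fold change of the 20 genes was -0.22 at 72 h and -0.10 at 24 h. Without the 3 libraries that stood apart, 5 were called at 72 h, these 3 with Gaa and Ppp1cb (named after their values were seen), and 1 at 24 h, Phkg1 (log2 -0.40, adjusted p = 0.0405). The count over all genes at 24 h rose from 703 to 1277 in that setting, so the shares above do not apply to it. At 72 h a single gene was called without 72 h replicate 2 or 3, without 72 h TNF replicate 2 or 3, with only the groups compared, or with a replicate block in which 72 h replicate 3 is unpaired. There were 2 without 72 h TNF replicate 1, with scaling by library totals only, and with no filter on low counts.

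**Figure D5:**
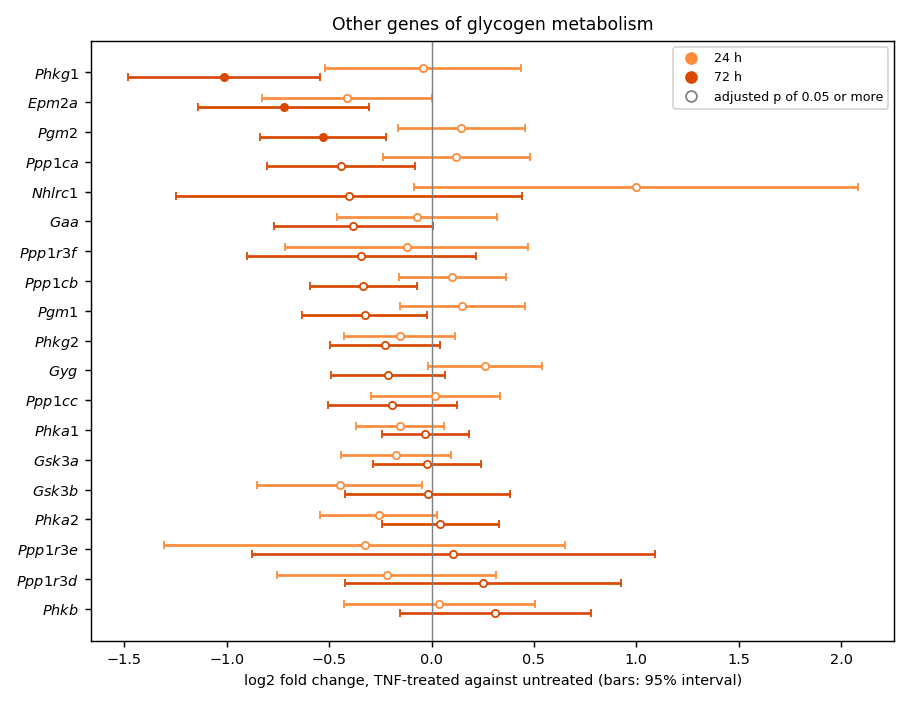
Log2 fold change of TNF-treated against untreated cultures at 24 h and 72 h for the other genes of glycogen metabolism that were tested and are reported, ordered by the 72 h value, with 95% intervals from the fit. Filled points have an adjusted p under 0.05. Phkg1 (-1.01), Epm2a (-0.72) and Pgm2 (-0.53) at 72 h are the only filled points.

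Of the 13 tested receptors and kinases, 2 were lower with TNF at 24 h, and 2 were lower and 1 higher at 72 h, against 3.5% and 9.56% of all genes called. Adcyap1r1, the PACAP receptor, was lower at both times: 543, 509 and 569.9 CPM against 277, 193 and 229.6 with TNF at 24 h (log2 -1.21, SE 0.19, adjusted p = 0.000951), and 401, 439 and 375 against 256, 168 and 179 at 72 h (log2 -1.01, SE 0.19, adjusted p = 0.0018). Adora2b, an adenosine receptor, was at 3.94, 7.42 and 6.49 CPM at 72 h and 1.52, 0.754 and 0.188 with TNF (log2 -2.83, SE 0.46, adjusted p = 0.000494). Igf1r, the IGF-1 receptor, was higher with TNF at 72 h, at 305, 289 and 325 CPM against 184, 150.3 and 112 (log2 1.04, SE 0.16, adjusted p = 0.000262). Irs1 was lower at 24 h (log2 -0.68, SE 0.17, adjusted p = 0.0289) and had a log2 difference of -0.08 at 72 h. At 24 h 1 gene of this list was called without any 1 of the 24 h libraries or without 24 h TNF replicate 1 or 2, and at 72 h 5 were called without 72 h replicate 1. Without the 3 libraries that stood apart, 3 were called at 24 h and 4 at 72 h. The count over all genes at 24 h rose from 703 to 1277 in that setting.

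The genes whose pattern over the 18 libraries was most like that of Pygb and Ppp1r3c were sought by the root mean square difference of centred log2 CPM among 16450 other genes. For Pygb these were Tspan9, a tetraspanin (0.142), B230311B06Rik (0.191) and D10Jhu81e (0.196), against an SD of Pygb itself of 0.457. Tspan9, for example, was at 221 ± 29.5 CPM at 72 h and 119 ± 14.9 at 72 h TNF (mean ± SD, n = 3). For Ppp1r3c they were Unc119 (0.330), Galnt16 (0.331) and Ntrk2 (0.340), the neurotrophin receptor TrkB, with an SD of Ppp1r3c of 0.724. Ntrk2 was at 1235 CPM in the mean at 72 h and 861 at 72 h TNF. The points share libraries, depth and scaling factors, and these likenesses are descriptions.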

How the data were processed

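Total RNA was sequenced by the authors as 18 stranded, ribosomal RNA-depleted libraries (paired 75-base reads). Per the labels and the study's methods, reads were trimmed with Trim Galore, aligned with STAR and counted per gene with Feature Counts on mm10. Versions, annotation, strand setting and the handling of reads with several matches are not given in the sources used here. RNA quality is given as a range only, not per library, and that range is wide and reaches low values. Its part in the libraries that stood apart was not tested. The deposited values are raw counts per gene, with 1 column per library. The column of 72 h replicate 3 carries another replicate number in its name and was matched to its sample through the rest of that name.

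From these counts, genes were filtered with filterByExpr by condition (20067 of 54838 kept) and scaled with TMM. A single model with 6 conditions over all 18 libraries was tested with edgeR 4.0.16 quasi-likelihood F tests in R 4.3.3, with Benjamini-Hochberg adjustment over all genes tested and a threshold of 0.05. Standard errors were derived from the fold change and F. CPM are TMM-scaled, and levels per length use the union of exons (GENCODE M21, GRCm38). Alternatives were DESeq2 1.42.0, other scalings and filters, a fit on only the groups compared, a replicate block, and each library left out. The fit was also run on simulated data with 200 genes changed, and the outcome is not reported here.

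Library totals were 12509693 to 22549627 counts. Reads carry no molecular identifiers, so limits from counts cover counting error only. The labels do not say whether libraries of the same replicate number are paired. Deviations of same-numbered libraries correlated most, in the mean, between 24 h TNF and 72 h TNF (0.291, 0.255 and 0.266). Because replicate 1 stood apart in both of these conditions, the correlations do not establish pairing, which was not tested. The members and the gene lists were chosen with earlier results of these data known. From the same libraries the study reports Ugp2, Pygb and Ppp1r3c as glycogen genes whose levels varied during differentiation and were modulated by TNF. Members are all named. Of the other lists, at most 4 called genes a list were named in each TNF comparison and in 72 h against NSPs, those with the largest absolute log2 fold change and a mean of at least 1 CPM. Individual values of some genes of these lists are not reported here, although the lists' counts include them.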

Additional observations from a re-analysis of the deposited data

How the results depend on the processing

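Over 28 alternatives, 10 comparisons and the interaction no called value changed sign: 735 called values kept their call and 46 lost it, and 1597 values that were not called stayed so while 63 gained a call. Of the 8 glycogen genes, the number called moved by more than 1.5 times in these settings. Scaling by library totals only gave 4 for 24 h TNF against NSPs, as did requiring at least 10 counts in every library. No filter on low counts gave 4 for 24 h against NSPs, 2 for 1 week against 72 h and 2 for TNF at 24 h. Fitting only the groups compared gave 1 for 72 h TNF against 24 h TNF and 2 for 1 week against 72 h. Leaving out replicate 1 of NSPs, 24 h TNF and 72 h TNF together, an alternative chosen after seeing the data, gave 4 for 24 h against NSPs, 2 for 1 week against 72 h and 2 for TNF at 24 h. With each library left out, the count ranged over 2 to 3 (24 h), 5 to 6 (72 h), 3 to 4 (1 week), 2 to 4 (24 h TNF) and 3 to 4 (72 h TNF) against NSPs, 3 to 6 for 72 h against 24 h, 1 to 4 for 72 h TNF against 24 h TNF, 0 to 1 for 1 week against 72 h, 0 to 1 for TNF at 24 h, 1 to 5 for TNF at 72 h (1 without 72 h replicate 2, 5 without 24 h TNF replicate 1) and 0 to 0 for the interaction. Moves by 1 gene are left out above except where they stand beside a result. Among them, DESeq2 gave 3 for 24 h TNF against NSPs, 4 for 72 h TNF against 24 h TNF and 3 for TNF at 72 h. The causes were not tested.

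Counts over all genes moved by more than 1.5 times in some settings. The interaction count of 92 became 239 (DESeq2), 470 (no filter), 56 (at least 10 counts in every library), 38 (only the groups compared), 348 (without the 3 replicate 1 libraries) and 25 to 152 with each library left out. TNF at 24 h went from 703 to 1276 (no filter), 1277 (without the 3) and 360 to 932, TNF at 72 h from 1919 to 1277 (only the groups compared) and 965 to 2922. From 24 h TNF to 72 h TNF 2670 became 828, 4685 (without the 3) and 1233 to 3802, and from 72 h to 1 week 1331 became 2001, 3224 (without the 3) and 610 to 1799.

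The replicate block, which pairs libraries of the same number, removed the Gys1 call from 24 h TNF to 72 h TNF (log2 -0.41, adjusted p = 0.0502). It changed no other call among the 8 genes in that comparison. In the other comparisons the block changed 1 further call, adding Pygb at 24 h against NSPs (log2 0.48, adjusted p = 0.0453). With 72 h replicate 3 unpaired, the block gave 24 (interaction), 617 (1 week against 72 h), 986 (TNF at 72 h) and 3286 (72 h against 24 h, from 4970) genes, ended the Gbe1 calls at 72 h against NSPs (adjusted p = 0.0523) and against 24 h (0.166) and the Gys1 call from 24 h TNF to 72 h TNF (0.0583), and added Stbd1 for TNF at 72 h (0.0422). Pygl, Stbd1 and Ppp1r3b, with at most 25 counts per library, are limited by depth.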
